A study of Mus musculus with 6 samples.

Results

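Proliferins are a small group of closely related hormones of the prolactin family, encoded in the mouse by the Prl2c genes. They were read here from the gene expression table of D2A1 spheroids as every row whose gene symbol starts with Prl2c, which gave 4 of 54146 genes, namely Prl2c1, Prl2c2, Prl2c3 and Prl2c5. The family was chosen because Prl2c2 and Prl2c3 had already been seen to be higher with rSLURP1 in these same libraries, so their TPM and log2 differences are given as a description with no test. D2A1, a mouse mammary tumor cell line used in studies of tumor dormancy, was grown as 3D cultures in Matrigel in medium with serum. Cells received either recombinant SLURP1 (rSLURP1), a small secreted protein, or recombinant glutathione S-transferase (rGST) as the control protein, each at 50 nM, and were harvested on the fifth day. Each treatment was represented by 3 RNAseq libraries, and the labels do not say whether these came from separate cultures, so p-values measure only the spread between libraries. The question of this comparison was which genes differ between control and SLURP1 treatment in vitro.

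Proliferins are secreted in large amounts by trophoblast giant cells of the placenta, and cultured mouse fibroblasts make them when stimulated by serum or growth factors. The secreted glycoprotein binds the cation-independent mannose 6-phosphate receptor (Igf2r) and promotes the migration of endothelial cells and the growth of vessels. The proliferin promoter is a textbook target of AP-1, the dimer of Fos and Jun proteins, and of the glucocorticoid receptor.

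Prl2c2 and Prl2c3 are so alike that a short read often cannot be given to 1 of them. Over the coding sequence of the annotated transcripts (GENCODE M21, GRCm38), Prl2c2 and Prl2c3 differed at 3 of 672 bases (identity 99.6%), 1 each in exons 1, 2 and 4, and the encoded proteins differed at 3 of 224 residues. Prl2c5 was further away, with 20 differences and 6 gap positions against Prl2c2 (96.1%). Prl2c1 stood apart from the rest at 91.4% to 93.1%. Exon 2 (176 bases) and exon 4 (183 bases) are coding throughout and are shown because they hold 2 of the 3 coding positions at which a read could tell Prl2c2 from Prl2c3. All are written 5′ to 3′ on the strand of the gene, and capitals mark every position at which any of the other sequences of that exon differs from Prl2c2, in Prl2c2 itself and in the gene that carries the change.
Prl2c2 exon 2, chr13:13002134-13002309 (minus strand): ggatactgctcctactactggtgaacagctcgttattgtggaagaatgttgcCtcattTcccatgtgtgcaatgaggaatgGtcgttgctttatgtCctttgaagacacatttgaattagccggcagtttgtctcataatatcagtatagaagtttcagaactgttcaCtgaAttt
Prl2c3 exon 2, chr13:12796831-12797006 (minus strand): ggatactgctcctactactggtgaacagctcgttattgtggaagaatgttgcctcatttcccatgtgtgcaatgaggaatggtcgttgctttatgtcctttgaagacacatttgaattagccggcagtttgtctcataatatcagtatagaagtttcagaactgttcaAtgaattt
Prl2c5 exon 2, chr13:13185790-13185965 (plus strand): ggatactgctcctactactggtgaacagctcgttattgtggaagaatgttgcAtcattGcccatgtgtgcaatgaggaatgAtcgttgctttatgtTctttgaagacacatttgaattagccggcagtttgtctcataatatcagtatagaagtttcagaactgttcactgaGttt
Prl2c2 exon 4, chr13:12997285-12997467 (minus strand): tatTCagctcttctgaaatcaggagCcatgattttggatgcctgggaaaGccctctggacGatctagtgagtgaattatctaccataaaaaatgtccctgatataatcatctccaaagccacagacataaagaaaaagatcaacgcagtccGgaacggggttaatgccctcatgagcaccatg
Prl2c3 exon 4, chr13:12791992-12792174 (minus strand): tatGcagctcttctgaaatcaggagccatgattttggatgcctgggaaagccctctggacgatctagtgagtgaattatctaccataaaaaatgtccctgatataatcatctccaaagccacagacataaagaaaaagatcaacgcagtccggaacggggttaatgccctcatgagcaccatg
Prl2c5 exon 4, chr13:13190586-13190768 (plus strand): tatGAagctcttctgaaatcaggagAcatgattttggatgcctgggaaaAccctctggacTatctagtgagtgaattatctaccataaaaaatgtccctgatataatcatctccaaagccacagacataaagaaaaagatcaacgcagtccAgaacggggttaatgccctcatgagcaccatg
Counted from the first base of exon 2, with the base of Prl2c2 given first, Prl2c3 carries C169A, and in exon 4 it carries T4G. Prl2c5 shares T4G with Prl2c3 but has 5 differences from Prl2c2 in exon 2 and 6 in exon 4, among them C53A and T59G in exon 2 and G50A in exon 4.

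The 3 genes most alike lie close together on chromosome 13 (GRCm38). Prl2c3 spans chr13:12790816-12800079 on the minus strand, Prl2c2 spans chr13:12996125-13005383 on the minus strand and Prl2c5 spans chr13:13182715-13191923 on the plus strand. The start sites of Prl2c3 and Prl2c5 were 0.205 and 0.177 Mb from that of Prl2c2. Prl2c1, at chr13:27849342-27857788 on the plus strand, starts 14.844 Mb away.

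Prl2c2 was low in every rGST library and high in every rSLURP1 library. Its values were 4.98, 3.51 and 8.84 TPM with rGST and 193.6, 201.38 and 150.37 TPM with rSLURP1. In this unit, TPM, reads are divided by the length of the transcript and expressed per fixed library total, so that levels of different genes can be set side by side. The groups did not overlap, and the lowest rSLURP1 library was 17.0 times the highest rGST library. Mean TPM went from 5.78 ± 2.75 in the control group to 181.8 ± 27.5 in the treated group (SD, n = 3 each), a 31.5-fold difference of means. On the log2(TPM + 1) scale, which understates changes of low genes, the difference was 4.82 (SE 0.35).

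Prl2c3 had the same pattern at a slightly lower level. It stood at 4.21, 3.78 and 4.95 TPM with rGST and at 156.73, 169.82 and 128.11 TPM with rSLURP1. All 3 rSLURP1 libraries lay far above all 3 rGST libraries, the nearest pair being 25.9 times apart. Mean TPM went from 4.31 ± 0.592 (SD, n = 3) to 151.6 ± 21.3 (SD, n = 3), a 35.1-fold difference of means and a log2(TPM + 1) difference of 4.84 (SE 0.15).

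The remaining paralogs were near or at the bottom of the table. Prl2c5 was listed at 0 in all 3 rGST libraries and at 0.46, 0.82 and 0.28 TPM with rSLURP1, so no fold is given. Prl2c1 was listed at 0 in all 6 libraries. Of the 4 rows, 2 (Prl2c2 and Prl2c3) passed the filter of at least 1 TPM in at least 3 libraries that was used for testing, and both did so in all 6 libraries.

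Because reads can be shared between the rows, their sum is the safer quantity. Summed proliferin TPM was 9.19, 7.29 and 13.79 with rGST and 350.79, 372.02 and 278.76 with rSLURP1. The groups did not overlap, since the lowest rSLURP1 sum was 20.2 times the highest rGST sum. The means were 10.09 ± 3.34 and 333.9 ± 48.9 TPM (SD, n = 3 each), a 33.1-fold difference, and the log2(TPM + 1) difference was 4.95 (SE 0.28). Of all TPM in a library, proliferin transcripts made up 0.000729% to 0.00138% in the rGST group and 0.0279% to 0.0372% in the rSLURP1 group. In bulk RNA, a larger number of cells that make proliferin and more proliferin RNA per cell cannot be told apart.

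**Figure D1:**
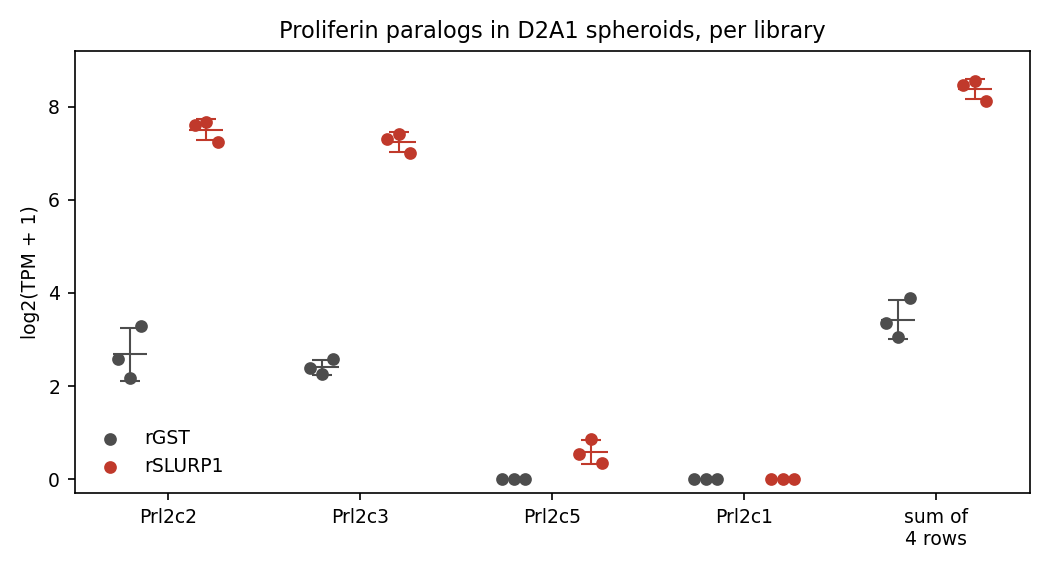
Level of each proliferin paralog and of their sum as log2(TPM + 1), with 1 point per library, a horizontal bar for the group mean and whiskers for the SD (n = 3). Prl2c2, Prl2c3 and the sum form separate clouds for rGST (gray) and rSLURP1 (red), Prl2c5 stays below 1 TPM, and Prl2c1 lies at 0 in all 6 libraries.

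Both expressed paralogs contributed to the sum in every library, with Prl2c2 holding 48.1% to 64.1% of it. With rSLURP1 the ratio of Prl2c2 to Prl2c3 TPM was 1.24, 1.19 and 1.17, and Prl2c2 held 53.9% to 55.2% of the sum. With rGST, where the levels were low, the ratio ranged more widely, at 1.18, 0.929 and 1.79. The rGST values lay on both sides of the rSLURP1 values, so no shift between the paralogs is described. Prl2c5 held 0.1% to 0.22% of the sum with rSLURP1.

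How far the paralogs could be separated at all was gauged by cutting each annotated transcript into windows and looking for the same window in the transcripts of every other gene. At 75 bases, 71.2% of the Prl2c2 windows also occurred in Prl2c3, and 69.9% of the Prl2c3 windows occurred in Prl2c2. Windows found in no other gene made up 19.9% for Prl2c2, 30.1% for Prl2c3 and 80.4% for Prl2c5. At 50 bases these shares were 10.5%, 21.4% and 61.4%, and at 100 bases they were 33.6%, 37.7% and 91.3%. The read length is not given in the sources used here. The only gene outside the Prl2c group that shared windows was Gm7040, which held 20.1% of the Prl2c2 windows at 75 bases and whose row was listed at 0 in all 6 libraries. The levels of Prl2c2 and Prl2c3 taken singly are therefore estimates that depend on how reads were divided, while Prl2c5 had more sequence of its own.

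**Figure D2:**
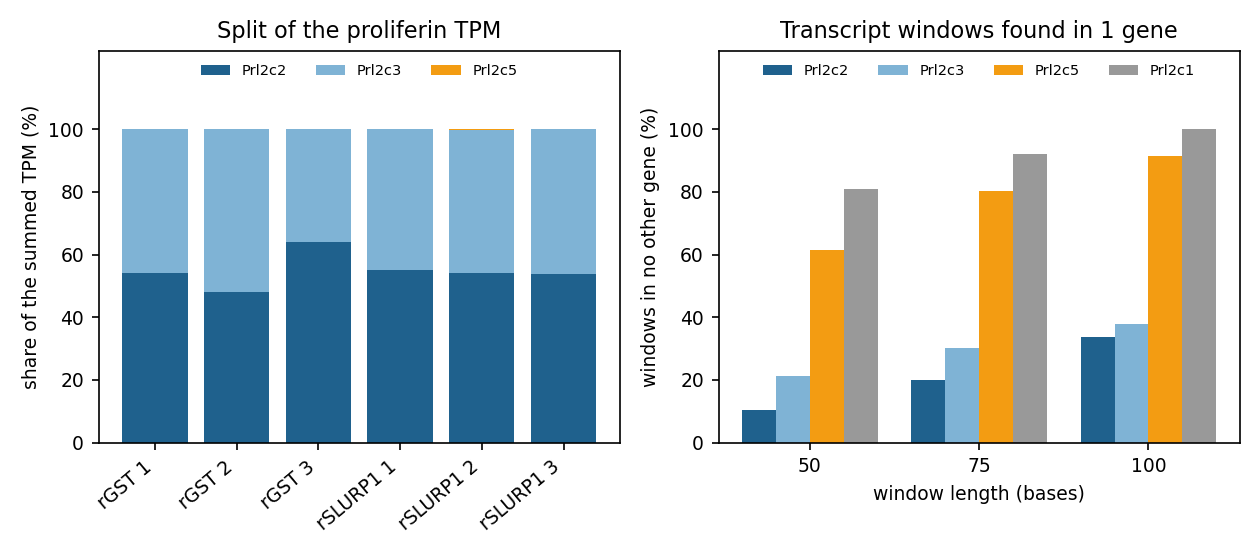
Left, share of the summed proliferin TPM (%) held by each paralog in each library. Right, share (%) of transcript windows of 50, 75 or 100 bases that occur in no other annotated gene. Prl2c2 holds between 48.1% and 64.1% of the sum, with the rSLURP1 bars nearly level, and at each window length Prl2c2 and Prl2c3 have the fewest windows of their own.

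Against the rest of the transcriptome, Prl2c2 and Prl2c3 moved from the lower-ranking detected genes to among the higher ones. Ranked by TPM from the highest, Prl2c2 was between rank 9032 and 10762 with rGST and between 584 and 779 with rSLURP1. Prl2c3 went from 10227 to 10646 with rGST to 705 to 937 with rSLURP1. Among the 12301 tested genes, Prl2c3 and Prl2c2 had the third and the fourth highest log2 difference, which is a description because the same contrast chose them. Of the tested genes, 1.15% were higher by at least 2-fold, counted on the log2(TPM + 1) scale here and in the lists that follow, at an adjusted p of 0.05 or less (limma, Benjamini-Hochberg) and 7.06% were lower. Without the fold threshold 8.66% were higher and 58.5% lower. The median log2 difference of all tested genes was -0.33, and relative to that median the differences of Prl2c2, Prl2c3 and the sum were 5.14, 5.17 and 5.27. When the TPM were rescaled so that the median gene moved by 0.006 (median-ratio scaling), 26.6% of tested genes were higher and 24.6% lower, and the log2 difference of the proliferin sum was 5.29.

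The genes with the profiles most like the proliferin sum all reached lower TPM than that sum with rSLURP1. The 5 tested genes outside the family with the most similar profile were picked by the root mean square distance of centered log2(TPM + 1) over the 6 libraries, which share 1 treatment contrast, so the correlations are a description only. Gm27875 was nearest, with a distance of 0.729 and Pearson r of 0.991, and reached 12.32, 14.68 and 7.55 TPM with rSLURP1 from a listed 0 in every rGST library. P2rx3, an ATP-gated ion channel of sensory neurons, came next (0.78, r = 0.993) with 0.51, 0.77 and 0.72 TPM against 18.99, 16.89 and 17.54 TPM. Both were low or absent in every rGST library and reached far lower levels than the proliferins. Gm22628 (0.822, r = 0.969) was also listed at 0 in the rGST libraries and had 21.8, 8.05 and 8.07 TPM in the rSLURP1 libraries. RP24-365N15.9 (0.95, r = 0.985) was at 21.26, 10.27 and 17.68 TPM and then at 135.45, 188.11 and 119.9 TPM. Cth, the enzyme that makes cysteine from cystathionine, was the fifth (1.03, r = 0.988), with 3.08, 4.43 and 3.6 TPM against 37.69, 40.04 and 31.49 TPM. The root mean square distances are on the log2 scale and smaller values mean a closer profile.

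**Figure D3:**
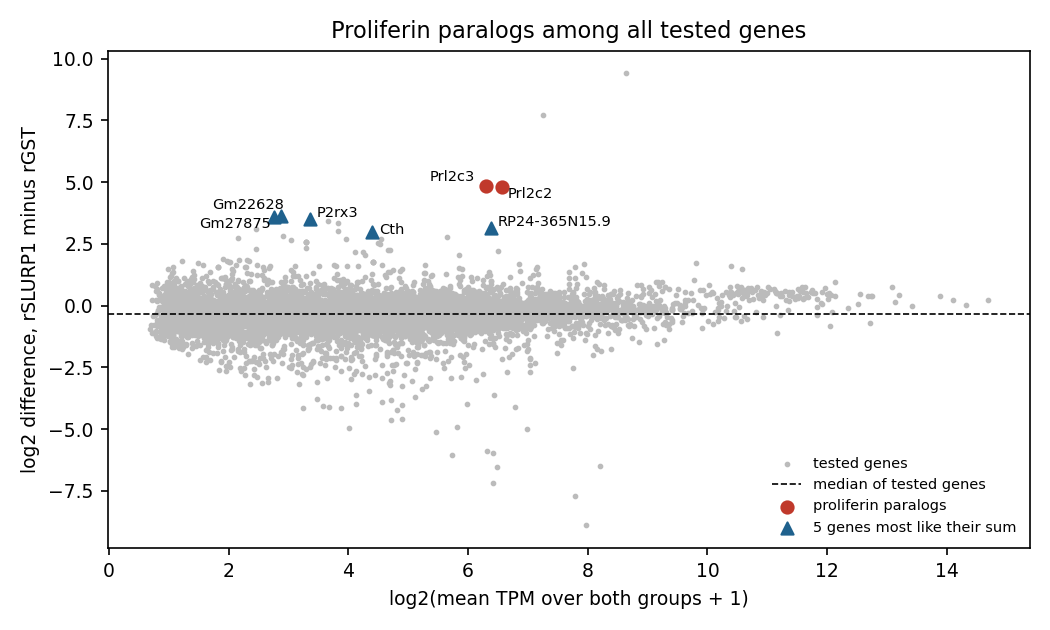
Log2 difference, rSLURP1 minus rGST, against log2(mean TPM + 1) for all 12301 tested genes (gray). Prl2c2 and Prl2c3 (red) lie at 4.82 and 4.84, above the 5 genes with the most similar profile (blue triangles), and the dashed line marks the median of -0.33.

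The rest of the prolactin family lay below the filter in both groups. Of 22 prolactin family genes outside the Prl2c rows, among them prolactin itself and the placental lactogens Prl3d1 and Prl3b1, 14 were listed at 0 in all 6 libraries and none reached the filter, with a highest single value of 0.49 TPM. Their summed level was 0 to 0.45 TPM with rGST and 0.97 to 1.59 TPM with rSLURP1. The groups of sums did not overlap, but how often sums of other genes this low separate was not counted. The values were spread over a few genes, and those given here were named after their values were seen. Prl2a1 had 0.32, 0 and 0 TPM against 0.49, 0.29 and 0.35 TPM. Prl6a1 had 0, 0 and 0 against 0.12, 0.47 and 0.4 TPM, and Prl8a9 had 0, 0 and 0 against 0.42, 0.08 and 0.25 TPM. Prl7a1 did not rise, with 0.09, 0 and 0 against 0.07, 0 and 0 TPM. Prl7d1, proliferin-related protein, which is known to oppose vessel growth, was listed at 0.04 TPM in 1 rGST library and at 0 in the other five.

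The tested genes on either side of the paralogs had log2(TPM + 1) differences below 1 in size. Of 114 annotated genes that start within 1 Mb of a Prl2c start site, 14 were tested, 13 of them around Prl2c2, Prl2c3 and Prl2c5. Of the 14, 2 rose and 6 fell (limma, adjusted p of 0.05 or less), beside 8.66% and 58.5% of all tested genes. The differences ran from -0.95 to 0.61, with a median of -0.30 beside -0.33 for all tested genes. Under median-ratio scaling 6 rose and 3 fell, beside 26.6% and 24.6% of all tested genes. Within 0.5 Mb 8 genes were tested, and 2 rose and 2 fell with the deposited TPM, with a median of 0.13. Under median-ratio scaling 5 of these 8 rose and 1 fell. The reason for the difference between the distances was not tested. Mtr, methionine synthase, fell by 0.95 on the log2 scale (limma, adjusted p = 0.000414), from 7.92, 6.57 and 8.06 TPM to 3.31, 2.95 and 3.97 TPM. Lgals8, the lectin galectin-8, and Arid4b, a chromatin protein, fell too (log2 differences -0.75 and -0.68). Gpr137b-ps, a pseudogene 0.15 Mb from the nearest paralog, had the highest value, a rise of 0.61 from 16.60, 14.83 and 15.43 TPM to 25.31, 27.17 and 20.99 TPM (adjusted p = 0.00117).

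**Figure D4:**
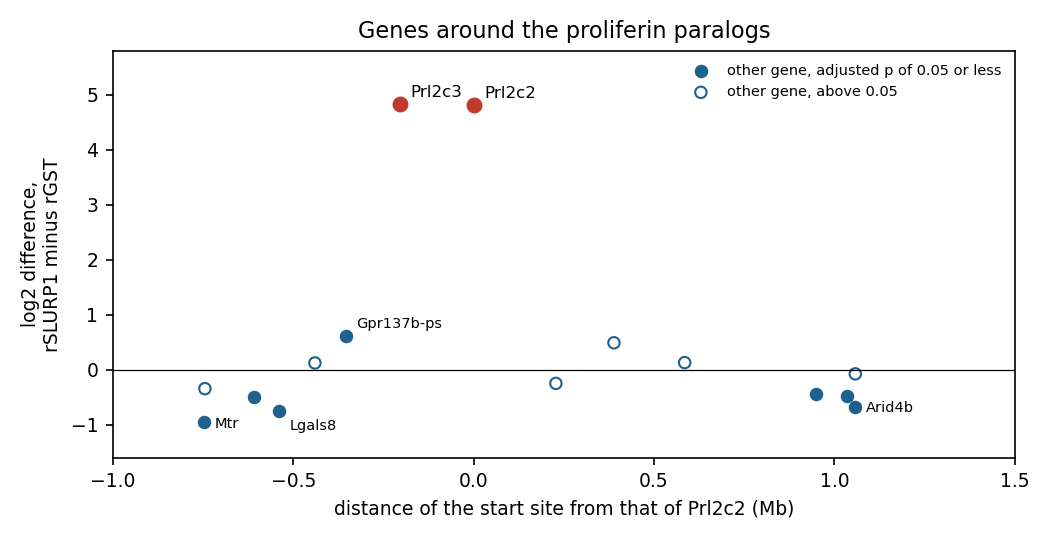
Log2 difference of the 13 tested genes around Prl2c2, Prl2c3 and Prl2c5 (blue) and of the 2 expressed paralogs (red) against the distance of each start site from that of Prl2c2 in Mb. The blue points lie between -0.95 and 0.61, while Prl2c2 and Prl2c3 lie near 4.8.

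Promoter sequence could be read for 2 of the 4 paralogs from the RefSeq table (GRCm38.p6). The 250 bases before the start site of Prl2c3 and Prl2c5 are shown because the first gene was high with rSLURP1 and the second was not, although the windows are 96.0% identical, with 8 mismatches and 2 gap positions. Capitals mark the match to the AP-1 motif TGANTCA, searched on both strands.
Prl2c3 promoter, chr13:12800080-12800329 (minus strand): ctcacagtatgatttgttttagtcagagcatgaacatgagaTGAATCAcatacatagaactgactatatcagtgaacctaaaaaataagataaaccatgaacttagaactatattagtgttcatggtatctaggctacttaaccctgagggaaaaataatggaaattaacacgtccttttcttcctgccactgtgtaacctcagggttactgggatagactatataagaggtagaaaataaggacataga
Prl2c5 promoter, chr13:13182466-13182715 (plus strand): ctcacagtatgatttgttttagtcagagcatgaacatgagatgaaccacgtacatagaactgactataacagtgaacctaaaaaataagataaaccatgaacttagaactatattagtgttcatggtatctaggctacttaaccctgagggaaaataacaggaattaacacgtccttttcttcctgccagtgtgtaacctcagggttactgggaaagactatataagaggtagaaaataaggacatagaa
Prl2c3 held 1 match, at bases 42 to 48 of the window, with 202 bases between it and the start site, and Prl2c5 held 0. Counted from the first base of the window, with the base of Prl2c3 first, 1 of the 8 mismatches, T46C, falls within the match. The others, A50G, T69A, T160C, G161A, A163G, C191G and T216A, lie outside it. Whether any of them bears on the levels was not tested. TGANTCA occurred in 6.75% of 32851 promoter windows of the same length, and in 7 of the 25 prolactin family promoters in the table. The exact string TATAAA, a form of a core promoter element, was present in 12.4% of all windows and had no match in either window. Other forms of that element were not searched, and both windows hold the run tatataagagg near the start site. The KLF motif CCCCACCC, present in 9.05%, had none either. A match is a run of letters and not evidence of binding.

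AP-1 subunits, named above as textbook regulators of the proliferin promoter, were followed with the glucocorticoid receptor in a list of 9 genes, all tested. A role of these genes in the proliferin difference was not tested. With the deposited TPM 4 rose and 3 fell (8.66% and 58.5% of all tested genes), and 2 rose by at least 2-fold (1.15% of all). The median log2 difference was 0.26 beside -0.33 for all tested genes. Fos, a subunit that dimerizes with Jun proteins, rose from 4.45, 5.83 and 3.88 TPM to 15.14, 17.35 and 15.94 TPM, higher in all 3 rSLURP1 libraries than in any rGST library (log2 difference 1.60, adjusted p = 4.06e-05). Atf3, a stress-induced member of the same family, rose by 1.62 (adjusted p = 0.000179). Fosl1 and Jund rose by 0.71 and 0.54. Jun, named for its role, fell by 0.36 with the deposited TPM (limma, adjusted p = 0.00326). Under median-ratio scaling the difference of Jun was -0.0005 (adjusted p = 0.995). Nr3c1, the glucocorticoid receptor, named for its role, fell by 0.48 with the deposited TPM (adjusted p = 0.00127) and had a difference of -0.14 (adjusted p = 0.191) under median-ratio scaling, where 7 of the 9 rose, beside 26.6% of all tested genes, and 2 did not pass the threshold. Junb changed direction between these scalings (-0.14 and 0.22).

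Genes induced by serum and growth factors went both ways. Of 12 listed genes, all tested, 6 rose and 5 fell, beside 8.66% and 58.5% of all tested genes, with a median of 0.15 beside -0.33. Under median-ratio scaling 7 rose and 5 fell, beside 26.6% and 24.6% of all. Odc1, the first enzyme of polyamine synthesis, rose from 143.95, 155.06 and 166.17 TPM to 344.78, 367.59 and 319.40 TPM (log2 difference 1.14, adjusted p = 9.52e-06). Ctgf fell by 2.79 (adjusted p = 3.46e-07), from 37.79, 39.32 and 34.71 TPM to 4.19, 4.67 and 4.71 TPM. Cyr61, like Ctgf a secreted matrix-associated protein, fell by 1.33, and Ccnd1, cyclin D1, fell by 1.36.

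Receptors and signaling genes of the prolactin and growth hormone axis included no gene that rose with the deposited TPM. Of 11 listed genes 10 were tested, and 10 fell, beside 58.5% of all tested genes. On the log2(TPM + 1) scale 2 of them fell by at least 2-fold, beside 7.06% of all. Their median was -0.81 beside -0.33 for all tested genes, and under median-ratio scaling 1 rose and 6 fell, beside 26.6% and 24.6% of all. Prlr, the prolactin receptor, was listed at 0 in all 6 libraries. Ghr, the growth hormone receptor, fell from 228.55, 209.13 and 222.60 TPM to 39.75, 44.17 and 39.91 TPM (log2 difference -2.39, adjusted p = 2.26e-07). Stat5a, the transcription factor that both receptors activate, fell by 1.16 (adjusted p = 1.08e-05), and its targets Cish and Socs1, which dampen the signal, fell as well (log2 differences -0.93 and -0.85). Igf2r, the receptor to which proliferin binds, named for its role, was at 33.10, 33.20 and 33.61 TPM with rGST and at 28.89, 30.15 and 29.05 TPM with rSLURP1. Its direction depended on scaling, with a log2 difference of -0.18 from the deposited TPM (adjusted p = 0.0135) and 0.18 under median-ratio scaling (adjusted p = 0.0114). M6pr, the smaller mannose 6-phosphate receptor, fell by 0.31 with the deposited TPM (limma, adjusted p = 0.000503). Under median-ratio scaling its difference was 0.05 and did not pass the threshold (adjusted p = 0.275).

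Other factors that act on vessels went both ways. Of 18 listed genes 12 were tested, with 2 higher and 8 lower, beside 8.66% and 58.5% of all tested genes. Counted at 2-fold, 1 was higher and 6 were lower, beside 1.15% and 7.06% of all. The median was -0.98 beside -0.33. Under median-ratio scaling 4 were higher and 6 lower, beside 26.6% and 24.6% of all. Angptl4, an angiopoietin-like secreted protein, was the 1 member that rose by at least 2-fold, from 106.69, 105.99 and 135.12 TPM to 277.55, 302.06 and 306.94 TPM (log2 difference 1.35, adjusted p = 1.94e-05). Vegfa, the main growth factor of endothelial cells, fell from 594.89, 645.81 and 575.61 TPM to 237.12, 259.21 and 235.88 TPM (log2 difference -1.31, adjusted p = 2.36e-06). The antiangiogenic thrombospondins Thbs1 and Thbs2 also fell, with log2 differences of -1.57 and -1.82. Angpt1, a ligand that stabilizes vessels, and the growth factors Pdgfb and Fgf2 fell too, with differences of -1.94, -1.59 and -1.24.

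**Figure D5:**
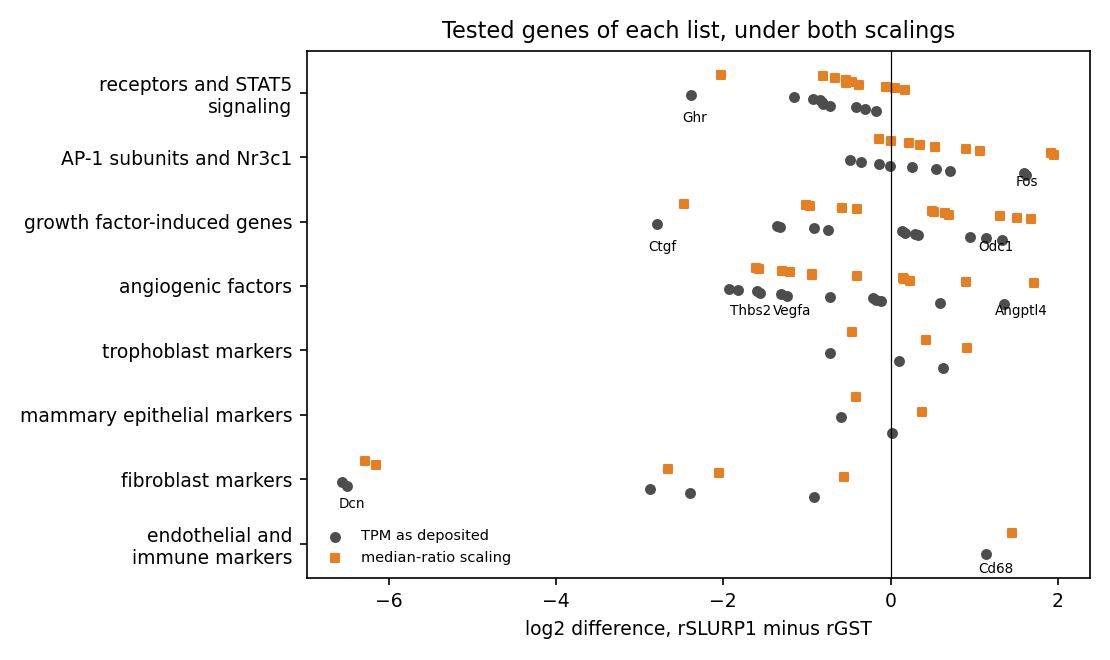
Log2 difference, rSLURP1 minus rGST, of the tested genes of each list, from TPM as deposited (gray circles) and after median-ratio scaling (orange squares). Signaling genes such as Ghr (-2.39) and fibroblast markers such as Dcn (-6.49) lie to the left under both scalings, and Fos (1.60), Odc1 (1.14) and Angptl4 (1.35) to the right.

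Most markers of the placental cells known for proliferin were at or near 0. Of 20 trophoblast markers 9 were listed at 0 in all 6 libraries, including the transcription factors Tfap2c, Gcm1 and Elf5 and the placental lactogens Prl3d1 and Prl3b1, and only 3 were tested. Hand1, a regulator of giant cells, had at most 0.22 TPM, and Tpbpa, a spongiotrophoblast marker, had at most 0.04 TPM. The summed level of the 20 was 18.04 to 18.34 TPM with rGST and 15.63 to 18.86 TPM with rSLURP1, ranges that overlapped. Most of this sum came from the 3 tested genes Eomes, Gata2 and Gata3. Their means were 3.57, 8.16 and 3.72 TPM with rGST and 6.08, 8.86 and 1.86 TPM with rSLURP1. The untested markers had at most 1.34 TPM, so the sum says little about them. Eomes rose by 0.62 on the log2 scale (limma, adjusted p = 0.00508), Gata3 fell by 0.72 (adjusted p = 0.0062) and Gata2 had a difference of 0.10 (adjusted p = 0.386), and each is a transcription factor used outside the placenta too. Under median-ratio scaling, Gata2 was higher and Gata3 no longer passed the threshold.

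The labelled identity of the cells was checked against mammary epithelial markers. Epcam, Krt5 and Krt14 were listed at 0 in all 6 libraries and Cdh1 had at most 0.07 TPM, whereas Krt18, a keratin of simple epithelia, was at 191.05 to 199.07 TPM with rGST and 196.04 to 199.39 TPM with rSLURP1. Krt8, its usual partner, was at 1.40 to 1.66 and 0.51 to 0.81 TPM and fell by 0.60 (adjusted p = 0.00968) with the deposited TPM but did not pass under median-ratio scaling (adjusted p = 0.0571). The log2 difference of Krt18 was 0.02 (adjusted p = 0.712) with the deposited TPM and 0.38 (adjusted p = 9.47e-05) under median-ratio scaling. Summed epithelial markers overlapped between groups (192.7 to 200.5 and 196.8 to 200.2 TPM), but nearly all of that sum was Krt18.

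Fibroblast and mesenchymal markers moved in the direction opposite to the proliferins. Of 6 markers 5 were tested and 5 fell under both scalings, beside 58.5% of all tested genes as deposited and 24.6% under median-ratio scaling. As deposited, 4 of them fell by at least 2-fold, beside 7.06% of all, and the median was -2.88 beside -0.33. Their summed level was 2047 to 2287 TPM with rGST and 667.8 to 725.9 TPM with rSLURP1. Dcn, the matrix proteoglycan decorin, fell from 519.68, 635.56 and 586.99 TPM to 5.34, 5.88 and 5.15 TPM (log2 difference -6.49, adjusted p = 1.37e-08). Lum, the related lumican, Col1a1, a collagen chain, and Pdgfrb, a growth factor receptor of mesenchymal cells, had log2 differences of -6.55, -2.88 and -2.40. Of 4 endothelial and immune markers, Cd68, a lysosomal protein abundant in macrophages, was tested and rose by 1.14 (adjusted p = 0.00019), from 3.57 to 4.07 TPM up to 7.75 to 10.58 TPM, while Ptprc, Pecam1 and Cdh5 had at most 0.31 TPM. The part of these marker changes in the proliferin difference was not tested.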

How the data were processed

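RNAseq of D2A1 spheroids was analysed in 6 libraries (3 rGST, 3 rSLURP1), grouped by the labels. Reads were trimmed with Cutadapt, aligned to mm10 with STAR and quantified with RSEM on GENCODE M12 by the authors, who deposited TPM per gene. RSEM divides reads shared by paralogs by expectation maximization. TPM keeps no depth, so counting error is unknown and precision rests on 3 libraries a group. The methods describe Smart-seq2 and the labels a TruSeq mRNA kit. The sorted cells of the study were not analysed here.

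Genes that reached 1 TPM in 3 or more libraries were tested on log2(TPM + 1) with limma 3.58.1 (R 4.3.3, eBayes with trend, no block, Benjamini-Hochberg). Called genes had an adjusted p of 0.05 or less, and a 2-fold change where stated. Prl2c rows were summed before the logarithm and not tested. Positions, exons and windows came from GENCODE M21 (GRCm38), and identity from global alignment (Biopython 1.88). The members and lists were chosen with earlier results of these data known. Named were all Prl2c rows, list members past both thresholds or, under 4 such, the 4 with the largest change, the 4 most changed neighbors and the 5 most similar genes. Of these, 1 list member is not reported here. Genes named for their role are marked or were listed below the filter. On simulated data with large changes in both directions and all other genes unchanged, limma recovered 193 of 200 changed genes, with 5 others called. Small changes and a shift of most genes, as in these data, were not simulated. Alternatives were a pseudocount of 0.1, other filters, median-ratio and quantile scaling, no trend, the replicate number as a block and each library left out.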

Additional observations from a re-analysis of the deposited data

How the results depend on the processing

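The log2 differences of Prl2c2, Prl2c3 and their sum stayed positive under each alternative run, at 4.56 to 5.15, 4.75 to 5.16 and 4.76 to 5.29. Prl2c3 moved by more than its replicate SD to 5.10 with a pseudocount of 0.1, 5.16 under median-ratio scaling and 5.14 under quantile normalization, and the sum moved to 5.29 under median-ratio scaling. Leaving out each library in turn gave 4.56 to 5.13 for Prl2c2, 4.75 to 4.96 for Prl2c3 and 4.76 to 5.18 for the sum. The counts over all tested genes depended on scaling. Higher and lower genes numbered 1065 and 7200 as deposited, 3274 and 3029 under median-ratio scaling, and 3095 and 2948 under quantile normalization. At 2-fold they numbered 142 and 869, then 314 and 460, then 303 and 428, and 94 rose with the filter in all 6 libraries. Among listed genes 14 rose, and 23 did under median-ratio scaling. Of 14 tested neighbors 2 were higher and 6 lower, and 6 and 3 under median-ratio scaling. Within 0.5 Mb, 2 of 8 were higher and 2 lower, beside 8.66% and 58.5% of all tested genes. Igf2r reversed to 0.18 under both scalings, and Krt18, at 0.02 with all libraries, ranged from -0.002 to 0.028 with each library left out, the negative value being that without rGST replicate 1. For these changes the cause was not tested.

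Libraries with the same number did not deviate together (correlations -0.0556, -0.034 and -0.0607). These values cannot show whether the cultures were set up or harvested in pairs. With the replicate block, 1008 genes were higher and 6954 lower, 13 listed genes rose and 33 fell, and the sum kept its difference of 4.95. TPM keeps no depth, so zeros carry no upper limit here.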

Other observations

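Some genes with a role in the placenta or in vessels lay below the filter and were not tested, and they were named here after their values were seen. Plac1, a placental surface protein, was at 1.32, 0.97 and 0.61 TPM with rGST and at 0.13, 0.16 and 0.22 TPM with rSLURP1. Psg17, a pregnancy-specific glycoprotein, was at 1.30, 0.97 and 1.34 TPM with rGST and at 0.31, 0.08 and 0.20 TPM with rSLURP1. Hgf, hepatocyte growth factor, was at 0.52, 0.75 and 0.61 TPM against 0.02, 0.05 and 0 TPM. In all 3 genes every rSLURP1 library lay below every rGST library, the order opposite to that of Prl2c2 and Prl2c3, and no test was run. Falls were common, with 58.5% of all tested genes lower as deposited and 24.6% under median-ratio scaling (limma, adjusted p of 0.05 or less). The share of all genes with such full separation was not counted. Plac1 and Psg17 were picked from 20 trophoblast markers whose summed level overlapped between the groups (18.04 to 18.34 TPM with rGST, 15.63 to 18.86 TPM with rSLURP1). Most of that sum came from Eomes, Gata2 and Gata3. In the same list Eomes was higher with rSLURP1 (limma log2 difference 0.62, and 0.92 under median-ratio scaling). Gata2 had differences of 0.10 and 0.43 under these scalings.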
